A study of Mus musculus with 15 samples.

Results

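The region described here is the 5 Mb nearest to the centromere on each of the 19 mouse autosomes, in lists of domains with decreased H2A.X from embryonic stem cells. It was taken as every 1300 bp bin that starts between 3 Mb and 8 Mb in the mouse build mm9, the bin size being that of the deposited domains. These are 73074 of the 1857350 bins from 3 Mb to the end of the last domain deposited for each chromosome, or 95.0 of 2414.6 Mb (3.93%). Of the 23031 deposited domains, 920 (3.99%) start in these windows. Positions alone define the windows, but they were chosen with earlier results of these data known.

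Mouse autosomes are telocentric: the centromere lies at one end, and the assembled sequence begins beyond a block of satellite repeats that the build leaves out. The first assembled megabases therefore border pericentromeric heterochromatin, which is known for repeats, segmental duplications and H3K9 methylation. H2A.X is a histone H2A variant that sits in a part of all nucleosomes and is phosphorylated around DNA double-strand breaks. Native ChIP-seq isolates nucleosomes without crosslinking, here after MNase digestion and with an antibody to H2A.X itself.

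The series held 15 samples of embryonic stem cell lines derived from 129S6 X C57B6 blastocysts, of which 11 were H2A.X immunoprecipitates, 3 inputs and 1 an IgG control. Decreased-domain lists of 10 immunoprecipitates were analysed: 3 from 2i/LIF (lines 34, 35 and 37), 2 from cells moved from 2i/LIF to Serum/LIF (lines 34 and 37, called after the move below), 3 labelled Serum/LIF with XS in the title (lines 30, 31 and 32) and 2 labelled Serum/LIF with S in the title (lines 35 and 37). Serum/LIF cells grew with serum and LIF on irradiated mouse embryonic fibroblast feeders, and 2i/LIF cells in N2B27-supplemented medium with LIF, the Mek inhibitor PD0325901 and the Gsk3 inhibitor CHIR99021. What S and XS stand for is not given. All groups carry the same hybrid background and no engineered allele is named. Both male and female lines were derived, and the labels give no sex for a line. No line has both an XS list and a list of another group, so for XS culture and line cannot be told apart. The labels do not say that samples of a group were cultured separately, so p-values measure only the spread between these samples, and that spread may be technical.

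The 8 lists outside the S group each cover between 30.5% and 78.1% of all bins and are called the wide lists here, while the S lists cover 0.0381% (line 35) and 0.380% (line 37). Read counts are not part of the lists, so the depth behind each is unknown. Every domain carries the state name of an enriched sample although its list is named as decreased, and the direction is taken from the list. A domain list of this kind cannot be checked against marker genes of stem cells.

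In every wide list, decreased domains covered less of the centromere-near windows than of the rest of the same chromosomes. In 2i/LIF the list of line 34 covered 25.4% of the window bins and 35.4% of the rest, the rest being a mean over the 19 chromosomes (34.6% of all bins). The list of line 35 covered 72.0% of the windows and 78.7% of the rest (78.1% of all bins). Line 37 had 38.9% and 45.9% (44.7% of all bins). The window-minus-rest difference in 2i/LIF thus lay between -9.97 and -6.69 percentage points, in lists of very different width.

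After the move to Serum/LIF, line 34 covered 37.2% of the windows and 42.8% of the rest (42.4% of all bins). Line 37 covered 36.0% of the windows and 42.7% of the rest (41.5% of all bins). The gap was similar in both, at -5.61 and -6.66 percentage points. In the XS lists it was wider. XS line 30 covered 18.1% of the windows and 37.1% of the rest (36.3% of all bins), and XS line 31 covered 55.8% and 73.6% (72.7% of all bins). XS line 32, the narrowest wide list, covered 10.7% of the windows and 30.98% of the rest (30.5% of all bins). All 3 XS gaps lay between -20.3 and -17.8 points, and none overlapped those of the other 5 wide lists.

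With the wide lists of a line averaged, the window was lower than the rest in 6 of 6 lines, by 13.1 ± 6.59 percentage points (SD, n = 6; two-sided exact sign-flip permutation test over lines, p = 0.0312, the smallest that 6 lines allow; 0.0417 after Benjamini-Hochberg adjustment over 4 measures). The adjusted p was 0.0625 when the windows ended at 5.5 Mb or at 13 Mb, because fewer of the other 3 measures then reached the smallest p; the difference itself was -14.1 and -12.4 points. With only the higher-scoring 50% of each list it was -14.1 points (exact permutation p = 0.0312, adjusted 0.125). Without any 1 line the smallest possible p is 0.0625, and the difference stayed between -14.3 and -11.6 points. No single line lay near the mean of 13.1 points below the rest. XS lines 30, 31 and 32 were at -19.0, -17.8 and -20.3 points, and lines 34, 35 and 37 at -7.79, -6.69 and -6.82. The SD over lines thus mostly reflects this split.

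**Figure D1:**
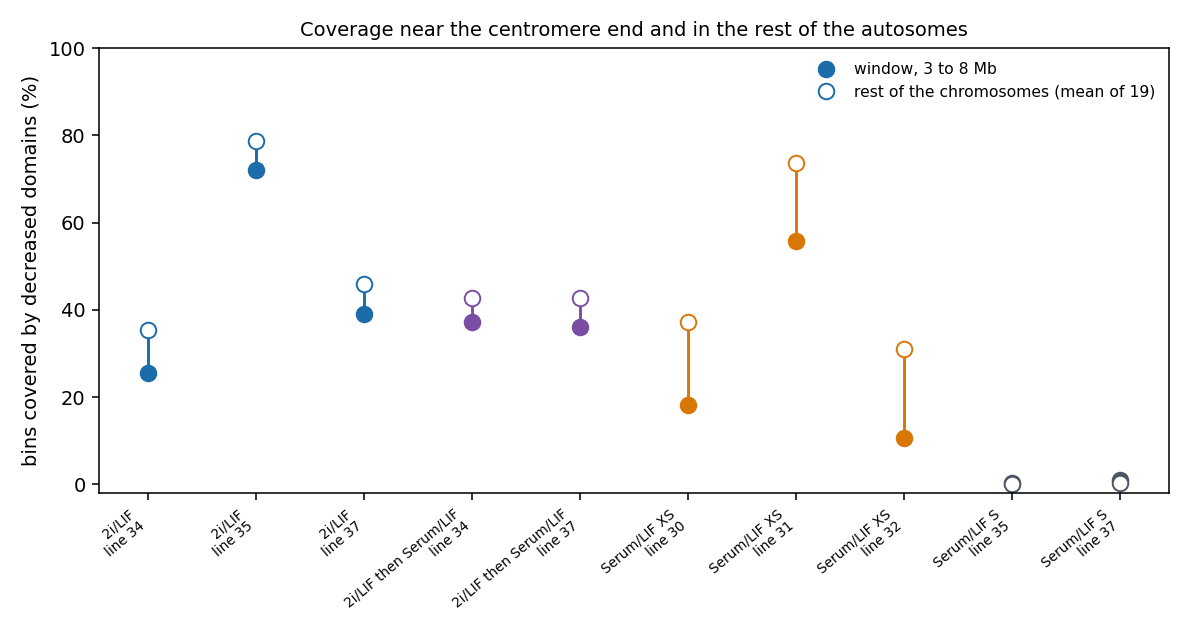
Percentage of 1300 bp bins covered by decreased domains (y axis) in the windows from 3 to 8 Mb (filled) and in the rest of the chromosomes (open, mean of 19 autosomes) for each of the 10 lists (x axis), coloured by culture. The filled point is the lower one in all 8 wide lists, and the S lists lie near 0.

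The low coverage did not end at 8 Mb. In consecutive 5 Mb steps over the 11 steps from 3 to 58 Mb, the window had rank 4 from the lowest in 2i/LIF lines 34 and 37 and in XS line 30, and rank 6 in both lists after the move. The steps from 13 to 18 Mb and from 18 to 23 Mb were lower than the window in all 5 of these lists. In 2i/LIF line 34 they held 15.8% and 18.6%, against 25.4% in the window. The list of line 37 after the move held 27.3% and 29.4% there, against 36.0%. Only in XS lines 31 and 32 was the window the lowest of the 11 steps. XS line 31 had 55.8% in the window and 56.8% in the step from 18 to 23 Mb, and XS line 32 had 10.7% in the window and 12.8% in the step that follows it. In 2i/LIF line 35 the window was second lowest, at 72.0% against 70.6% from 18 to 23 Mb. In all 8 wide lists, each of the 3 steps from 8 to 23 Mb was below the mean of the rest.

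Within the windows, the outermost part was covered less than the inner part in the XS lists and in 2i/LIF lines 35 and 37. In the first 0.5 Mb, XS lines 30, 31 and 32 covered 13.3%, 31.2% and 2.73%. In the last 2.5 Mb of the windows the same lists covered 17.3%, 61.6% and 14.5%. The 2i/LIF list of line 35 covered 51.0% and 73.1%, and that of line 37 covered 27.2% and 39.2%. In line 34 the values were 21.9% and 23.5%. After the move, line 34 covered 40.5% of the first 0.5 Mb and 35.7% of the last 2.5 Mb, and line 37 covered 35.2% and 33.8%. Nearer to the start both of these lists fell below their last 2.5 Mb, with 33.6% and 21.3% in the first 0.25 Mb and 18.9% and 11.1% in the first 0.1 Mb. In the first 0.25 Mb, XS line 32 held 1 covered bin over all 19 chromosomes (0.0274%). The very first bin, from 3000401, was covered on at most 2 of the 19 chromosomes in any wide list.

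**Figure D2:**
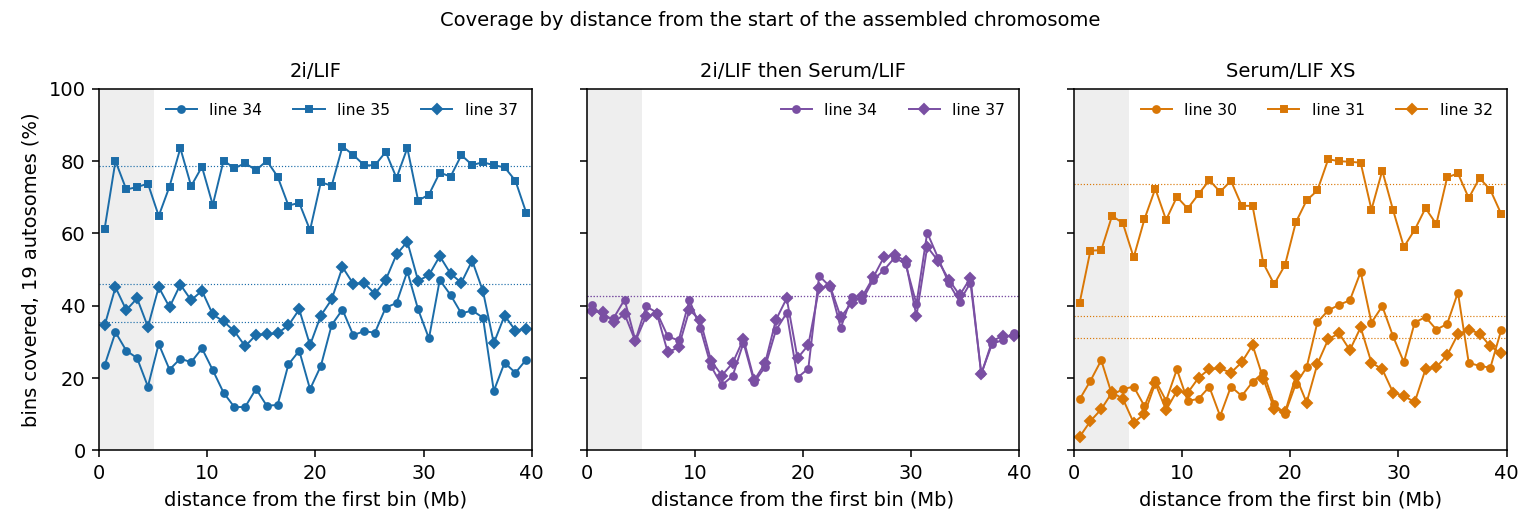
Percentage of bins covered over all 19 autosomes (y axis) in steps of 1 Mb by distance from the first bin (x axis, Mb), 1 line per list and 1 panel per culture, with the windows shaded and the mean of the rest dotted. Low values run past the shaded part in most lists: in 2i/LIF line 34 the steps from 10 to 15 Mb on this axis (13 to 18 Mb in mm9) together hold 15.8% and the window 25.4%.

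Domains in the windows were shorter than elsewhere, while their number per Mb was higher in some lists and lower in others. In 2i/LIF the median length of domains starting in the windows was 171.6 kb in line 34, 299 kb in line 35 and 193.7 kb in line 37, against 192.4, 365.3 and 222.3 kb elsewhere. After the move it was 236.0 kb in line 34 and 133.3 kb in line 37, against 293.8 and 178.1 kb. In XS lines 30, 31 and 32 it was 128.1, 312 and 58.5 kb, against 205.4, 395.9 and 79.3 kb. The window median was the lower one in all 8 wide lists. Over lines, the log2 ratio of window to rest was -0.38 ± 0.16 (SD, n = 6), a length 0.766 times that elsewhere, lower in 6 of 6 lines (exact sign-flip permutation p = 0.0312, adjusted 0.0417). XS line 30 had the lowest ratio, 0.623, and 2i/LIF line 34 the highest, 0.892. The ratio did not pass the test with only the higher-scoring 50% of each list (log2 -0.15, exact permutation p = 0.0625, adjusted 0.125), with windows to 13 Mb (-0.27, exact permutation p = 0.0625, adjusted 0.0833) or, after adjustment, with windows to 5.5 Mb (-0.57, exact permutation p = 0.0312, adjusted 0.0625).

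By chromosome the length difference was uneven. Of the chromosomes with a domain in the window, the window median was below that of the rest on 15 of 17 in XS line 32, 14 of 17 in XS line 30 and 14 of 18 in 2i/LIF line 37. It was below on only 10 of 19 in 2i/LIF line 35 and 9 of 19 in XS line 31, the lists with the longest domains. On chromosome 16 the window median was the higher one in both lists after the move, with window medians of 612.3 kb (line 34) and 397.2 kb (line 37) against 296.4 and 170.3 kb in the rest.

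Chromosome 16 held the longest window domain of 4 of the 8 wide lists. There the list of line 34 after the move had 1 domain of 3.29 Mb (mm9 positions 4205501 to 7499700), and that of line 37 had 1 of 2.16 Mb (4375801 to 6533800). The 2i/LIF list of line 35 had 1 of 3.60 Mb that runs past the window end (5079101 to 8680100), and XS line 30 had 1 of 1.36 Mb (5083001 to 6440200). In XS lines 31 and 32 the longest was on chromosome 8, 6.27 Mb (5192201 to 11464700) and 0.815 Mb (6813301 to 7628400). The longest in 2i/LIF line 34 was on chromosome 19, 1.39 Mb (5293601 to 6688500). The longest of 2i/LIF line 37 was on chromosome 11, 1.95 Mb (6249101 to 8201700). No list had its longest domain in the windows.

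The number of domains starting in the windows was 100, 149 and 131 in 2i/LIF lines 34, 35 and 37, or 1.05, 1.57 and 1.38 per Mb. It was 98 and 132 after the move (1.03 and 1.39 per Mb), and 90, 97 and 105 in XS lines 30, 31 and 32 (0.947, 1.02 and 1.11 per Mb). Elsewhere these lists had 1.08, 1.31 and 1.30 per Mb, then 0.763 and 1.21, then 1.05, 0.912 and 1.85. The windows had the higher density in 5 wide lists and the lower in 2i/LIF line 34 and XS lines 30 and 32. The log2 ratio over lines was -0.02 ± 0.38 (SD, n = 6; exact sign-flip permutation p = 0.969, adjusted 0.969), and without line 32 it was 0.12 (exact permutation p = 0.188). The sign was not stable: it also turned without line 30 (0.0051) and in several of the alternatives.

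The authors' score, divided by the number of bins of a domain, was lower in the windows by a small amount. The score never exceeds the number of bins, so this quotient cannot pass 1, and the authors' definition of it is not given in the sources used here. Median scores per bin of window domains were 0.846, 0.677 and 0.754 in 2i/LIF lines 34, 35 and 37, against 0.871, 0.724 and 0.794 elsewhere. After the move they were 0.840 and 0.843, against 0.864 and 0.875. In XS lines 30, 31 and 32 they were 0.682, 0.595 and 0.779, against 0.691, 0.639 and 0.790. Over lines the difference was -0.0287 ± 0.0165 (SD, n = 6; lower in 6 of 6 lines, exact sign-flip permutation p = 0.0312, adjusted 0.0417). It did not pass with windows to 5.5 Mb (-0.0199, exact permutation p = 0.0938, adjusted 0.125) or with the higher-scoring 50% of each list (-0.0238, exact permutation p = 0.125, adjusted 0.156). With windows to 13 Mb it was -0.0262 (exact permutation p = 0.0312, adjusted 0.0625). Summed score over summed bins gave -0.0276 (exact permutation p = 0.0625, adjusted 0.0833). Window domains were also the shorter ones, and the part of length in this difference was not tested.

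**Figure D3:**
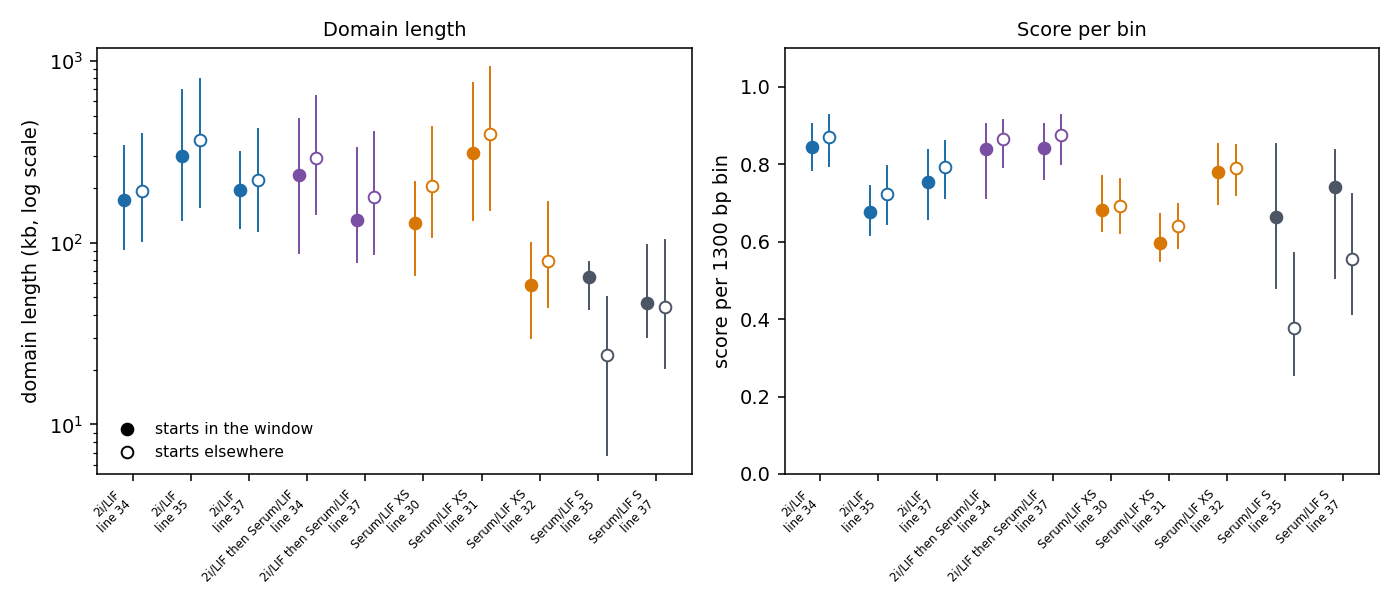
Left, length of domains (kb, log scale); right, score per 1300 bp bin, for domains that start in the windows (filled) and elsewhere (open) in each list, with points at the median and bars from the lower to the upper quartile. Filled points are lower in all 8 wide lists on both panels and higher in both S lists.

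Another deposited value, in column 5, has no given meaning and was read for its sign only. After the move, line 34 had 32 of 98 window domains (32.7%) with a value above 0, against 15.9% elsewhere. In the other 7 wide lists at most 5.00% of window domains did, and at most 1.84% of those elsewhere. Both of these highest shares were those of 2i/LIF line 34. In both S lists all domains did, in the windows and elsewhere.

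Chromosomes differed widely, and the same ones tended to stand at each end in most lists. The mean window-minus-rest difference over the 8 wide lists was below 0 on 15 of 19 chromosomes and above 0 on 4. It was highest on chromosomes 19, 16 and 11, at 17.4, 14.3 and 2.92 percentage points. It was lowest on chromosomes 14, 9 and 1, at -47.8, -34.5 and -25.0 points. No chromosome was above its rest in all 8 wide lists, and 5 (3, 4, 5, 9 and 14) were below in all 8.

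The window of chromosome 19 was covered more than the rest of that chromosome in 7 of 8 wide lists. In 2i/LIF lines 34, 35 and 37 it was covered over 69.5%, 82.2% and 74.1%, against 41.7%, 80.3% and 58.2% in the rest. After the move the values were 72.1% and 78.2%, against 33.1% and 55.7%. XS line 30 had 64.5% against 34.8% and XS line 32 had 27.4% against 23.4%. XS line 31 was the exception, at 72.7% against 74.2%. Chromosome 19 has the shortest span of all, 58.3 Mb.

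On chromosomes 16 and 11 the XS lists stood apart from most others. The chromosome 16 window was covered over 53.5%, 84.3% and 73.3% in 2i/LIF lines 34, 35 and 37 and over 84.0% and 79.7% after the move, each above its rest (26.7%, 79.6% and 36.8%, then 39.7% and 40.2%). In XS lines 30, 31 and 32 it was 40.2%, 70.0% and 12.5%, against 39.9%, 80.3% and 39.8%. The chromosome 11 window was covered over 86.0% and 77.7% after the move (rest 65.0% and 61.7%) and over 64.2%, 78.8% and 75.8% in 2i/LIF (rest 52.0%, 82.9% and 61.4%). In all 3 XS lists it was below its rest, at 41.7%, 60.2% and 10.2% against 46.9%, 73.3% and 27.9%.

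The window of chromosome 14 held almost nothing in any list. In the wide lists its coverage ran from 0% to 0.130%, whereas the rest of chromosome 14 was covered over 30.1% to 77.8%. No domain starts there in 2i/LIF line 37, XS line 30 or XS line 32. The other 5 wide lists have 1 or 2 domains there, and only at the same places: a single bin from 4517501 to 4518800 (1.30 kb) or 5.20 kb from 7736301 to 7741500. The S list of line 37 has that second place as well. Beyond the window the wide lists begin between 8500701 and 9141601. The 4.99 Mb of the chromosome 14 window in no list make up 35.8% of all window length in no list. Without chromosome 14, an alternative chosen after seeing the data, the coverage difference over lines was -10.99 points (exact sign-flip permutation p = 0.0312, adjusted 0.0417).

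Chromosomes 9 and 1 came next. The chromosome 9 window was covered over 5.36%, 72.1% and 26.5% in 2i/LIF, 12.7% and 11.2% after the move, and 2.55%, 29.6% and 6.86% in XS, with the rest at 45.3%, 81.4%, 58.5%, 61.1%, 57.9%, 40.2%, 73.7% and 24.7% in that order. On chromosome 1 the list of 2i/LIF line 35 was the exception, with 82.4% in the window and 77.9% in the rest. The others had 2.60% and 21.9% in 2i/LIF lines 34 and 37, 4.19% and 7.33% after the move, and 0%, 48.4% and 3.61% in XS lines 30, 31 and 32.

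**Figure D4:**
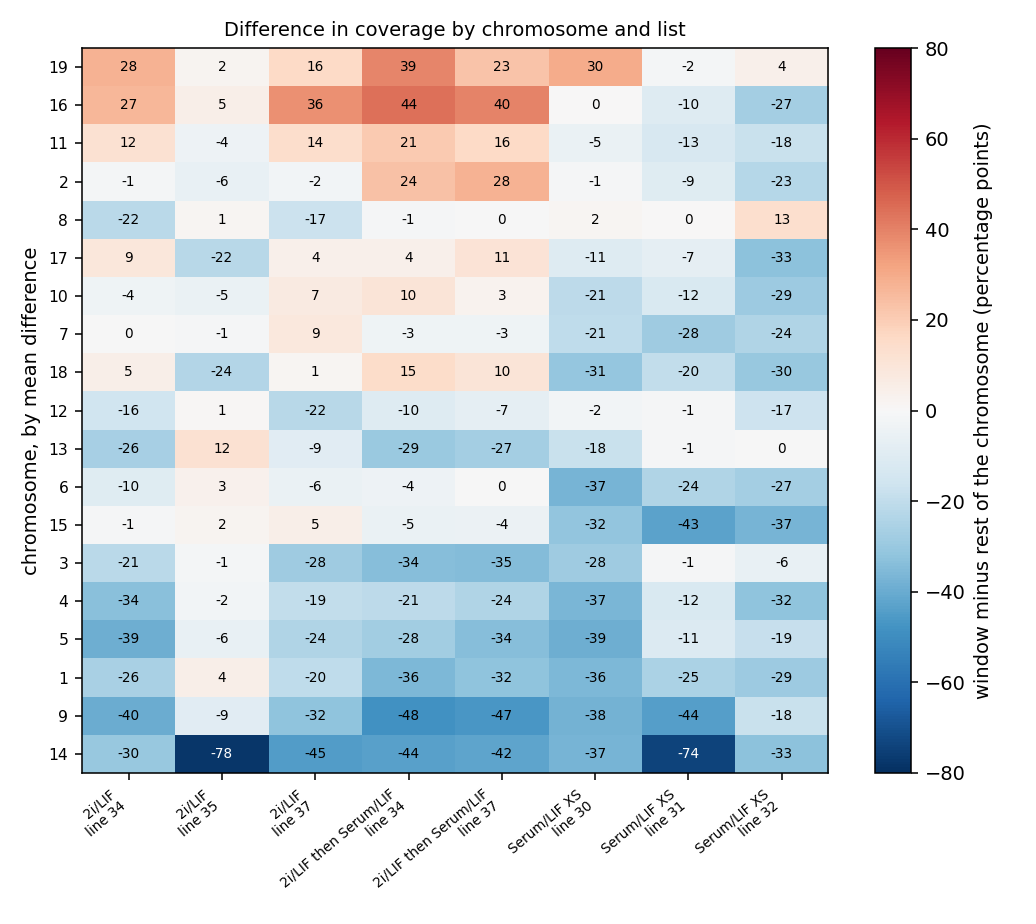
Window coverage minus coverage of the rest of the same chromosome (percentage points, colour and number) for the 19 autosomes (rows, by mean) and the 8 wide lists (columns). Chromosome 14 is negative in every column, and chromosomes 19, 16 and 11 are positive after the move but not in most XS columns for chromosomes 16 and 11.

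Fewer window bins were shared by all lists than elsewhere. Only 2.64% of window bins (2.51 Mb) were in all 8 wide lists, against 7.87% of the rest (7.66% of all bins). In no list at all were 14.7% of window bins (13.9 Mb), against 8.20% of the rest (8.45% of all bins). Without chromosome 14 the window share in no list was 9.94%. Of the length common to all 8 wide lists, 50.2% lay on chromosome 19, 17.8% on chromosome 16 and 16.7% on chromosome 11. Chromosomes 6, 8 and 13 could hold none of it. Line 37 after the move covered 0% of the windows of chromosomes 6 and 8. XS line 32 covered 0% of the chromosome 13 window and 0.0857% of the rest of that chromosome. The longest unbroken common stretches were 279.5 kb of chromosome 19 (6373901 to 6653400), 136.5 kb of chromosome 16 (5800601 to 5937100) and 127.4 kb of chromosome 19 (5644601 to 5772000). Next were 111.8 kb of chromosome 12 (3802501 to 3914300) and 105.3 kb of chromosome 19 (3902601 to 4007900). The longest stretches in no list were the chromosome 14 ones, 3.22 and 1.52 Mb, then 560.3 kb of chromosome 9 (3305901 to 3866200), 544.7 kb of chromosome 17 (6366101 to 6910800) and 474.5 kb of chromosome 7 (7525701 to the window end at 8000200).

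The XS lists in particular shared few bins here, where each of them also covered less. All 3 XS lists held 4.83% of window bins against 20.3% of the rest (19.7% of all bins). The share in all 3 XS lists, like that in all 8 wide lists, cannot exceed the coverage of XS line 32. That list covered 10.7% of the windows and 30.98% of the rest. How much of the low sharing follows from low coverage was not tested. All 3 2i/LIF lists held 21.4% against 31.1% (30.7% of all bins), and both lists after the move held 32.4% against 37.7% (37.4% of all bins). Bins in all XS lists but in no 2i/LIF list and neither list after the move were 0.0588% of the windows, 0.0559 Mb in all, and 1.17% of the rest (1.13% of all bins). Most of that was 1 stretch of 46.8 kb on chromosome 5 from 7139601 to 7186400. The reverse, bins in all 5 lists of 2i/LIF and after the move but in no XS list, was as frequent here as elsewhere, at 1.94% against 1.68% (1.69% of all bins). The widest 2 lists, 2i/LIF line 35 and XS line 31, were the only lists to cover 11.9% of window bins and 7.78% of the rest (7.95% of all bins).

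Between 2i/LIF and the lists after the move, total window coverage differed by less than the spread. It was 45.4% ± 24.0 (SD, n = 3) in 2i/LIF and 36.6% ± 0.811 (SD, n = 2) after the move, 8.87 percentage points apart (p = 0.8 in a two-sided exact permutation test, 0.2 being the smallest that 3 lists against 2 allow). Line 35, with a list in 2i/LIF but not after the move, decided its sign: without it the difference was -4.41 points, as it was with lines 34 and 37 paired. Line 34 gained window coverage, from 25.4% to 37.2%, and line 37 went from 38.9% to 36.0%. Of the window length in the 2i/LIF list, line 34 kept 84.7% and line 37 kept 63.4%, compared with 81.3% and 68.0% in the rest of the chromosomes. The difference between window and rest was -7.88 ± 1.82 points in 2i/LIF (SD, n = 3) and -6.14 ± 0.741 after the move (SD, n = 2), -1.74 points apart (exact permutation p = 0.2, the smallest possible), and with windows to 13 Mb 0.300 points apart. This test took the lists as independent, although lines 34 and 37 have a list in both groups. With these lines paired the groups were -2.34 points apart, where the smallest possible exact permutation p is 0.5.

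Window bins that all of 2i/LIF held and that both lists lacked after the move were concentrated on chromosomes 6 and 8. They made up 2.47% of the windows (3.99% of all bins), and 36.2% of that length was on chromosome 6 and 22.4% on chromosome 8. After the move these chromosomes were nearly empty along their whole length: lines 34 and 37 covered 4.52% and 0.0368% of chromosome 6 and 1.20% and 0.291% of chromosome 8 outside the windows. The longest stretches were 282.1 kb of chromosome 8 (3529501 to 3811600) and 257.4 and 206.7 kb of chromosome 6 (4596801 to 4854200 and 5197401 to 5404100). XS line 31 covered 69.6%, 0% and 87.4% of these, XS line 30 57.6%, 0% and 0%, and XS line 32 none. The opposite set, held after the move by lines 34 and 37 and by no 2i/LIF list, made up 4.57% of the windows (4.42% of all bins). Its longest stretches were 379.6 kb of chromosome 2 (5213001 to 5592600), 327.6 kb of chromosome 17 (5002401 to 5330000) and 300.3 kb of chromosome 5 (3335801 to 3636100). No XS list covered any of the chromosome 5 stretch, while XS line 30 covered 100% of the one on chromosome 17. On chromosome 2 the mean window coverage was 73.6% after the move and 50.6% in 2i/LIF, and the difference to the rest 25.7 and -3.20 points.

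XS windows covered 28.2% ± 24.2 of bins (SD, n = 3). The single lists, at 10.7%, 18.1% and 55.8%, lay on both sides of the lists after the move and overlapped those of 2i/LIF. The difference to 2i/LIF was 17.2 percentage points (exact permutation p = 0.5, two-sided, 0.1 being the smallest possible). It depended on single lists: it was 3.96 points without 2i/LIF line 35, 8.49 without XS line 32, 27.3 without 2i/LIF line 34 and 31.04 without XS line 31. That of the lists after the move to XS was 8.37 points (exact permutation p = 0.8). It was -0.376 points without XS line 32, 3.33 without XS line 30 and 22.2 without XS line 31. Relative to the rest of each list, however, XS windows were at -19.0 ± 1.23 points (SD, n = 3), below every list of the other groups. This gap was 11.2 points larger than in 2i/LIF (exact permutation p = 0.1, the smallest that 3 lists against 3 allow; 0.36 adjusted over 9 comparisons) and 12.9 points larger than after the move (exact permutation p = 0.2, the smallest possible, adjusted 0.36). Over the alternatives and left-out lists the first value ran from 9.67 to 14.03 points and the second from 10.99 to 18.7. By chromosome the wider XS gap was not general. The XS mean was below both the 2i/LIF mean and that after the move on 11 of 19 chromosomes. On chromosome 3, for example, it was above both, at -11.8 points against -17.0 in 2i/LIF and -34.3 after the move.

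The S lists had few domains, but these were denser in the windows than in the rest as a whole. Of the 26 S domains of line 35, 4 (15.4%) start in the windows, and of the 130 of line 37, 14 (10.8%) do, where the windows are 3.93% of the span. They covered 0.239% of window bins in line 35 and 0.911% in line 37, against 0.0261% and 0.350% of the rest (0.0381% and 0.380% of all bins). Bins of either S list were 0.911% of the windows (0.384% of all bins), and bins of both were 0.239% of the windows and 0.0267% of the rest (0.035% of all bins). Both are far below the wide lists: 2i/LIF exceeded S by 44.9 points and XS by 27.6 points (exact permutation p = 0.2 each, the smallest possible), and the lists after the move by 36.0 points (exact permutation p = 0.333, the smallest possible). Without XS line 31 the XS value was 13.8 points, and without 2i/LIF line 35 the 2i/LIF value was 31.6. With lines 35 and 37 paired the 2i/LIF value was 54.9. With 2 lists the excess over the rest, 0.213 and 0.561 points, was not tested, since 2 values cannot give a p under 0.5.

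S domains of the windows lay at the very start of the sequence. All 4 of line 35 and 11 of the 14 of line 37 begin within 250 kb of the first bin, on chromosomes 3, 4, 6, 9, 11, 12, 16, 17, 18 and 19. Of these, 1 in line 35 and 4 in line 37 begin at the first bin itself. In the first 0.1 Mb, S line 37 covered 20.2% of bins and S line 35 covered 9.16%, while the wide lists covered 0.0684% (XS line 32) to 29.0% (2i/LIF line 35). Here S line 37 covered more bins than 7 of the 8 wide lists. In the last 2.5 Mb of the windows S line 35 covered 0% and S line 37 covered 0.203%, less than the 0.0261% and 0.350% of the rest. Among the 11 steps of 5 Mb the window was the highest in S line 35. In S line 37 the step from 48 to 53 Mb was higher, at 0.954% against 0.911%.

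Over the whole span, 651 of the 708 bins of S line 35 were also in S line 37. In the windows, all 4 places of line 35 were also in line 37. These were on chromosome 4 from 3005601 to 3018600 (13 kb) and on chromosome 16 from 3231801 to 3285100 (53.3 kb), with the same ends in both. On chromosome 11 line 35 had 75.4 kb from 3025101 to 3100500 and line 37 had 101.4 kb from 3000401 to 3101800. On chromosome 17 line 35 had 85.8 kb from 3000401 to 3086200 and line 37 had 149.5 kb from 3000401 to 3149900. Scores per bin at these places were 0.816, 0.396, 0.962 and 0.510 in line 35 and 0.998, 0.749, 0.959 and 0.786 in line 37, in the order chromosomes 4, 16, 11 and 17.

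Only line 37 had the remaining 10. Near the first bin these were on chromosome 3 from 3000401 to 3035500, chromosome 4 from 3151201 to 3182400, chromosome 6 from 3130401 to 3208400, chromosome 9 from 3038101 to 3068000 and chromosome 12 from 3084901 to 3125200. Longer ones lay on chromosome 18 (3000401 to 3086200, 85.8 kb) and chromosome 19 (3096601 to 3248700, 152.1 kb). The other 3 began farther in, on chromosome 9 from 7923501 to 8086000 (162.5 kb, past the window end), chromosome 10 from 7230601 to 7244900 and chromosome 14 from 7736301 to 7741500.

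The S places were partly outside the wide lists. Of the S length in the windows, 33.7% in line 35 and 52.4% in line 37 was in any wide list, against 34.1% and 41.1% for the S length elsewhere. S places thus lay outside the wide lists more often than bins in general. Of all bins, only 15.1% in the windows and 8.41% in the rest were in no wide list. Most window S places lie near the first bin, however, where every wide list covered less than in its windows as a whole. The wide lists covered 0.0274% (XS line 32) to 42.0% (2i/LIF line 35) of the first 0.25 Mb, against 10.7% and 72.0% of the windows. The part of position in this difference was not tested. The chromosome 16 place was in none of the 8 wide lists. Of that whole window, 40.2% to 84.3% was covered in 7 of them. Nor were those of line 37 on chromosomes 12 and 18 and its second on chromosome 4. The 75.4 kb of line 35 on chromosome 11 were in no wide list either, and of the 101.4 kb of line 37 there 1.28% was. By contrast, the places on chromosomes 9 (7923501 to 8086000), 10, 14 and 19 and the one on chromosome 3 were covered in full when the domains of the 2 to 4 wide lists that touch them were merged.

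**Figure D5:**
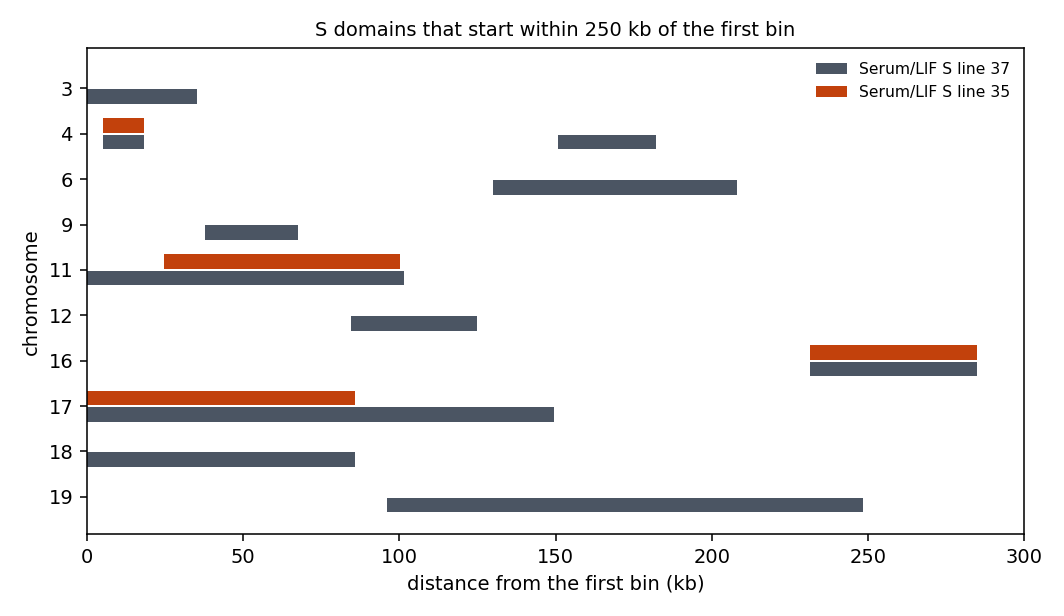
S domains that start within 250 kb of the first bin, drawn as bars by distance from that bin (x axis, kb) for each chromosome that has one (y axis), line 35 above line 37. The bars of line 35 on chromosomes 4, 11, 16 and 17 all overlap bars of line 37, and on chromosomes 4 and 16 they have the same ends.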

How the data were processed

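Native ChIP-seq reads were aligned by the authors with Bowtie2 version 2.0.6 to mm9, per the submitters' processing notes. How domains were called, against which control and from which pooled samples is not given in the sources used here. A list belongs to 1 sample and was deposited with a start, an end, a value in column 5 and a score per domain. The deposited score was divided by the length in bins, and column 5 was used only for its sign. Coordinates are 1-based. No gene or sequence is given, because no mm9 reference was used here.

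Groups came from the titles and the labelled culture. Lists were turned into covered and uncovered bins, and a domain belongs to the window in which it starts. Coverage differences were taken per chromosome and averaged over the 19 autosomes. Window and rest were compared by exact sign-flip tests over the 6 lines of the wide lists (Benjamini-Hochberg over 4 measures), and cultures by exact permutation tests over lists (over 9 comparisons), all two-sided, with a threshold of 0.05. Named regions are all S domains of the windows, the 5 longest stretches in all wide lists and in none, the 3 longest of each contrast between 2i/LIF and the lists after the move, the longest domain of each list, and the 3 highest and 3 lowest chromosomes. The chromosome 5 stretch of the XS lists and the chromosome 2 values were picked after their values were seen. The measures were run on simulated lists drawn independently of each other. The real lists share many positions, so the simulation does not test the p-values given here. Members, windows and tests were chosen with earlier results of these data known. Titles share numbers across cultures, and these were read as cell lines that pair the lists. Python 3.11.15, numpy 2.4.6 and matplotlib 3.10.9 were used.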

Additional observations from a re-analysis of the deposited data

Results flagged for a closer look

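The S lists and the wide lists departed from the rest of the chromosomes in opposite directions, and every list of a group did so. The difference between the groups' departures was not tested. For coverage, the window-minus-rest difference relative to that in S was -8.27 percentage points in 2i/LIF, -6.52 after the move and -19.4 in XS. The S mean was 0.387 points, and the S lists covered only 0.0261% and 0.350% of the rest. These coverage values therefore mostly restate the gaps of the wide lists. For median domain length, the log2 ratio of window to rest was -0.97 in 2i/LIF, -1.12 after the move and -1.24 in XS relative to S. For score per bin the same differences were -0.272, -0.263 and -0.256. The S values rest on few domains and differ between its lists: the log2 length ratio was 1.42 in line 35 (4 window domains) and 0.08 in line 37 (14 window domains), and the score difference was 0.285 and 0.185. The length differences from S thus come largely from line 35.

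On chromosome 11 both lists after the move covered the window more than the rest and all XS lists covered it less, with means of 18.5 and -12.0 percentage points, 30.5 apart, a difference that was not tested. This split was not particular to chromosome 11, as chromosomes 2, 10, 17 and 18 had it too. The means lay farther apart on chromosome 2 (25.7 and -11.2 points) and chromosome 18 (12.6 and -26.9 points).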

How the results depend on the processing

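The coverage difference between windows and rest kept its sign in every alternative and left-out line. Its adjusted p rose above 0.05 with windows to 5.5 Mb (-14.1 points) or 13 Mb (-12.4) and with the higher-scoring 50% of each list (-14.1), each with an unadjusted exact permutation p of 0.0312; adjustment over the 4 measures did this. In the same 3 settings the length ratio (log2 -0.57, -0.27 and -0.15) and the score per bin (-0.0199, -0.0262 and -0.0238) also missed the threshold, as did summed score over summed bins (-0.0276). Leaving out lines gave -14.3 to -11.6 points, log2 length -0.41 to -0.32, score -0.0327 to -0.0250 and log2 density -0.0778 to 0.123. Domain density changed sign with windows to 5.5 Mb (log2 0.13), without chromosomes 6, 8 and 13 (0.0069), over 8 lists in place of 6 lines (0.0269) and without chromosome 14 (0.0461). Window coverage of 2i/LIF minus that after the move ran from -4.41 to 18.9 points without single lists, and with the line as a replicate block it was -4.41; the block turned no other comparison that could be paired. Coverage of 2i/LIF minus XS ran from 3.96 to 31.04 without single lists, and after the move minus XS from -0.376 to 22.2. The difference of differences between 2i/LIF and after the move was 0.300 with windows to 13 Mb. The causes of these changes were not tested. Depth is unknown, so no counting interval was computed.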
